A study of Arabidopsis thaliana with 24 samples.

Results

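The 10 genes described here are those named as sperm-cell specific genes of the thale cress Arabidopsis thaliana: HAP2 (also called GCS1), GEX2, DMP8, DMP9, GEX1, GEX3, DUO1, DAZ1, DAZ2 and HTR10 (also called MGH3). They were chosen by name and not by a methylation value, and they are 10 of the 32961 nuclear genes in the deposited table. All 10 were covered by at least 10 calls in each cytosine context and pool. A call is the reading of 1 cytosine in 1 sequenced fragment as methylated or unmethylated after bisulfite treatment, which converts unmethylated cytosines only.

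The series measured DNA methylation in nuclei of Col-0 plants of the genotypes ago5, ago9, ago59 and wt21, each as sperm nuclei and as stem-cell nuclei. Sperm nuclei came from pollen of plants aged 35 days and stem-cell nuclei from seedlings aged 7 days, sorted for mCherry, a red fluorescent protein. All plants grew under 16 h light and 8 h dark. The labels list 2 replicates per group, and the table gives 1 column per group and context, so that each of the 8 groups was 1 pool, no difference can be set against the spread between replicates, and no p-value is given. The label ago59 is not spelled out further by the labels, which also give no alleles and do not say what drives the reporter. Cell type was tied to organ, age, sorting and the number of nuclei, so these cannot be told apart from it. A pool's level is a mean over nuclei, so a share of nuclei with full methylation and partial methylation in all of them cannot be told apart either. No expression was measured, so the label of the gene set could not be checked against transcripts.

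Plant cytosines are methylated in CG, CHG and CHH contexts, where H is A, C or T. Methylation in the CG context alone is common in the transcribed part of moderately expressed genes, where it is copied at each cell division, whereas CHG and CHH methylation mark mainly transposable elements and are in part directed by small RNAs bound to ARGONAUTE proteins, the family mutated here. In pollen, a generative cell divides into the sperm pair, which is carried to the ovule by the vegetative cell. DUO1, a MYB transcription factor, drives much of the male germline program, and HAP2, GEX2, HTR10, DAZ1 and DAZ2 are among its known targets.

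In the coordinates of the table, HAP2 (AT4G11720) lies at chr4:7063255-7066878, GEX2 (AT5G49150) at chr5:19924354-19929256, DMP8 (AT1G09157) at chr1:2951635-2952490 and DMP9 (AT5G39650) at chr5:15875125-15876116. GEX1 (AT5G55490) lies at chr5:22478712-22481937 and GEX3 (AT5G16020) at chr5:5229513-5232311. DUO1 (AT3G60460) lies at chr3:22342321-22343576, DAZ1 (AT2G17180) at chr2:7476662-7477683, DAZ2 (AT4G35280) at chr4:16787280-16788283 and HTR10 (AT1G19890) at chr1:6904963-6906028. Levels were taken over the whole annotated gene, exons, introns and untranslated parts together. The genes differ in structure and in how many CG sites they offer. HAP2 and GEX2 each have 17 exons, GEX3 has 8, GEX1 7, HTR10 4 and DUO1 3, whereas DAZ1, DAZ2, DMP8 and DMP9 have 1 exon each. The ratio of observed to expected CG dinucleotides, which is low where methylated cytosines have been lost by mutation over evolution, was 0.524 in GEX2, the lowest of the 10, and 1.23 in DMP9, the highest, beside a median of 0.690 over all nuclear genes. The coding stretches of 150 bases with most CG dinucleotides in GEX2, DMP8 and DMP9 are shown because GEX2 had the highest CG level, DMP9 differed between mutants and wt21, and DMP8 is its close relative. The transposable element AT4TE30630 is shown because it lies in intron 3 of HAP2 and was far more methylated than the rest of that gene. All are written 5′ to 3′ from the TAIR10.1 assembly of RefSeq, with CG dinucleotides in capitals.
GEX2, chr5:19924929-19925078, plus strand: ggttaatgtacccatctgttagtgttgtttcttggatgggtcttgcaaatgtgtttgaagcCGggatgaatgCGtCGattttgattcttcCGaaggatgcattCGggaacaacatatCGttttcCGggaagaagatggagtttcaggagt
DMP9, chr5:15875282-15875431, plus strand: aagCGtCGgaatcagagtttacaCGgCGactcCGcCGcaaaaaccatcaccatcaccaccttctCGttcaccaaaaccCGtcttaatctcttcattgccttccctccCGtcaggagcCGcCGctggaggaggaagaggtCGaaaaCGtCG
DMP8, chr1:2952227-2952376, minus strand: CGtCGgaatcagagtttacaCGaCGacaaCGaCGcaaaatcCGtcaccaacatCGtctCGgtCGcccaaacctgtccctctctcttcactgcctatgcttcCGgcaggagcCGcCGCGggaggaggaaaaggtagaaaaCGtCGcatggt
AT4TE30630, chr4:7063901-7064003, plus strand: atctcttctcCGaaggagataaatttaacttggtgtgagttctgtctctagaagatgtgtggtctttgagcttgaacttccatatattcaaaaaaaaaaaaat
The GEX2 stretch holds 7 CG dinucleotides, the DMP9 stretch 14 and the DMP8 stretch 16, although GEX2 was far more methylated. The coding sequences of DMP8 and DMP9 are identical at 89.5% of aligned bases, with a longest identical run of 47 bases. How reads from such runs were placed was not examined. The element holds 1 CG dinucleotide, so its CG calls come from a single site read on both strands.

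The pools held 204779091 to 228311583 calls in sperm and 233474571 to 303354876 calls in stem-cell nuclei over all features. Over the 10 genes, CG calls per gene ranged between 369 and 2028 in sperm pools and between 322 and 2325 in stem pools. CHH calls of the chloroplast genome, which is largely unmethylated and serves as a measure of failed conversion, were methylated at 1.34% in ago5, 4.56% in ago9, 1.06% in ago59 and 1.37% in wt21 sperm, against 0.303 to 0.312% in the 4 stem pools. The sperm values rest on 18577 to 32063 calls and the stem values on 7664120 to 9262714 calls. The median CHH level of all nuclear genes was likewise higher in every sperm pool, at 0.749 to 0.862%, against 0.297 to 0.314% in stem pools. Both measures were thus higher in each sperm pool than in any stem pool, and levels and differences are as deposited unless a correction is named; corrected CG differences of the 10 genes follow the account of the list. The mCherry feature of the table had 0 calls in all 8 pools, including the 4 stem pools sorted for that protein.

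The CG levels of the genes spanned a wide range, with GEX2 and then HAP2 highest in all 8 pools. In wt21 sperm GEX2 was highest, at 33.6% (Wilson 95% interval 31.2 to 36.0%), above 84.3% of nuclear genes. HAP2 followed at 21.1% (Wilson 95% interval 19.4 to 22.9%). GEX1 had 11.2% (Wilson 95% interval 9.20 to 13.5%) and DUO1 9.37% (Wilson 95% interval 7.42 to 11.8%), and their intervals overlapped. GEX3 had 4.64% (Wilson 95% interval 3.76 to 5.71%), DAZ1 3.94% (Wilson 95% interval 2.68 to 5.75%) and HTR10 2.64% (Wilson 95% interval 1.72 to 4.05%), and each interval overlapped its neighbour's. DMP9, DMP8 and DAZ2 were lowest, with 0.939%, 0.783% and 0.542% and overlapping intervals. The median over the 10 genes was 4.29% in wt21 sperm and 2.99% in wt21 stem nuclei, beside 3.94% and 2.23% over all nuclear genes. All intervals cover counting error only, and calls on the same fragment are not independent, so they are too narrow.

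**Figure D1:**
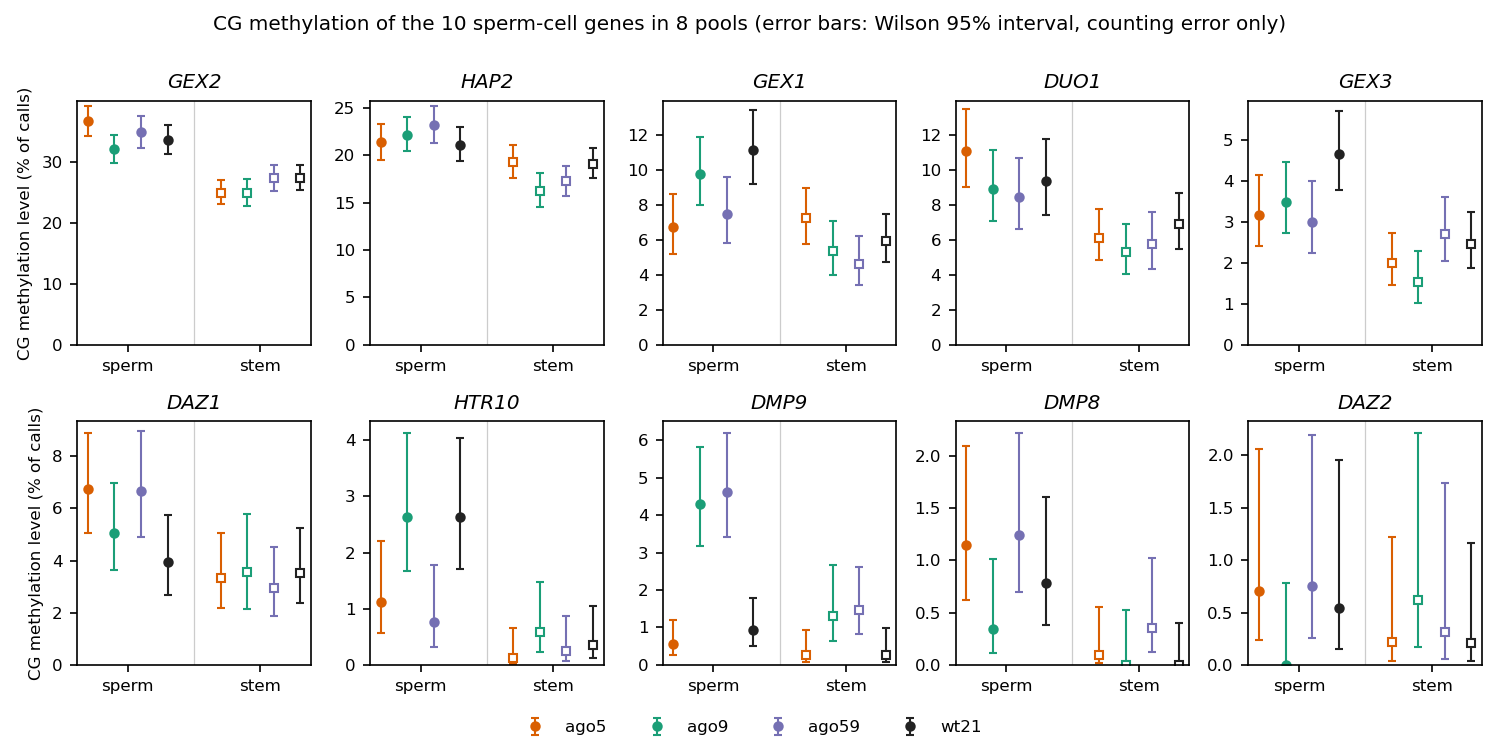
CG methylation level (percent of calls) of each of the 10 genes in 4 sperm pools (filled circles) and 4 stem pools (open squares), coloured by genotype, with Wilson 95% intervals; each panel has its own axis. GEX2 lies at 32.1 to 36.7% in sperm, above all stem pools, and DMP9 stands out in ago9 and ago59.

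Among the proteins that act at the sperm surface, GEX2, which helps gametes attach to each other, had the clearest difference between the cell types. Its CG level in sperm was 36.7% in ago5, 32.1% in ago9, 34.8% in ago59 and 33.6% in wt21. In stem nuclei it was 25.0% in ago5, 24.9% in ago9, 27.3% in ago59 and 27.4% in wt21. All 4 sperm pools lay above all 4 stem pools, and the difference in wt21 was 6.17 points (95% interval 3.05 to 9.29). In ago5 it reached 11.7 points (95% interval 8.53 to 14.9), the only difference of any of the 10 genes past the threshold of 10 points set for CG. After correction for failed conversion by the chloroplast level it was 11.1 points. The table also lists AT5G49152, annotated over the whole of GEX2, and calls in GEX2 are counted in both, so the level cannot be assigned to one of them.

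HAP2, the protein that fuses the gamete membranes, was methylated in CG at 21.4% in ago5, 22.1% in ago9, 23.1% in ago59 and 21.1% in wt21 sperm. In stem nuclei the levels were 19.2% in ago5, 16.2% in ago9, 17.2% in ago59 and 19.1% in wt21. The sperm and stem pools did not overlap, but the wt21 difference of 2.00 points (95% interval -0.382 to 4.40) included 0, whereas the differences in ago9 and ago59 were 5.91 points (95% interval 3.35 to 8.43) and 5.92 points (95% interval 3.38 to 8.48). After the chloroplast correction these were 2.45 points in ago9, the sperm pool with the highest chloroplast level, and 5.35 points in ago59.

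DMP8 and DMP9, related sperm membrane proteins needed for gamete fusion, were nearly free of CG methylation in wt21. DMP8 had 1.14% in ago5, 0.346% in ago9, 1.25% in ago59 and 0.783% in wt21 sperm. In stem nuclei it had 0.0982% in ago5 and 0.350% in ago59, 0 of 721 calls in ago9, which allows a level of up to 0.416%, and 0 of 946 calls in wt21, which allows up to 0.317%. DMP9 had 9 of 958 methylated calls in wt21 sperm, against 2 of 740 in wt21 stem nuclei. The ranges of sperm and stem pools overlapped for both genes.

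GEX1, a nuclear envelope protein that acts in gametophyte development and nuclear fusion, had CG levels of 6.72% in ago5, 9.79% in ago9, 7.51% in ago59 and 11.2% in wt21 sperm. In stem nuclei it had 7.23% in ago5, 5.34% in ago9, 4.64% in ago59 and 5.95% in wt21. The ago5 sperm pool lay below the ago5 stem pool, with a difference of -0.512 points (95% interval -2.84 to 1.89), whereas wt21 differed by 5.20 points (95% interval 2.73 to 7.81). GEX3, a membrane protein of the gametes, had 3.00 to 4.64% in sperm pools and 1.54 to 2.71% in stem pools, with no overlap and a wt21 difference of 2.18 points (95% interval 1.02 to 3.40).

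The transcription factors had low to moderate CG levels. DUO1 had 11.0% in ago5, 8.88% in ago9, 8.43% in ago59 and 9.37% in wt21 sperm. In stem nuclei it had 6.12% in ago5, 5.31% in ago9, 5.73% in ago59 and 6.90% in wt21. The pools of the cell types did not overlap, although the wt21 difference of 2.47 points (95% interval -0.167 to 5.26) included 0. DAZ1 and DAZ2 are zinc finger proteins that act below DUO1 in the division of the generative cell. DAZ1 had 3.94 to 6.74% in sperm pools and 2.93 to 3.55% in stem pools, with a wt21 difference of 0.409 points (95% interval -1.71 to 2.56). DAZ2 was at or below 0.754% in each sperm pool and at or below 0.615% in each stem pool, and in ago9 sperm 0 of 487 calls were methylated, which allows up to 0.616%.

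HTR10, a histone H3 variant found in male gametes, had CG levels of 1.13% in ago5, 2.64% in ago9, 0.762% in ago59 and 2.64% in wt21 sperm. In stem nuclei it had 0.118% in ago5, 0.580% in ago9, 0.241% in ago59 and 0.358% in wt21. All sperm pools lay above all stem pools, and the wt21 difference was 2.28 points (95% interval 1.13 to 3.71).

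Over the list, CG levels of wt21 were higher in sperm than in stem nuclei for 10 of 10 genes, beside 81.8% of all nuclear genes. The median difference was 2.09 points, beside 1.02 points over all nuclear genes. Counting intervals lay above 0 for 5 of 10 (GEX2, GEX1, HTR10, GEX3 and DMP8), beside 40.0% of all genes, and 0 of 10 passed 10 points, beside 7.90%. In ago5 9 of 10 were higher, beside 80.2%, 6 with an interval above 0, beside 37.1%, and 1 passed 10 points, beside 7.40%. In ago9 these counts were 9, 7 and 0, beside 80.8%, 37.6% and 8.36%. In ago59 they were 10, 7 and 0, beside 80.2%, 37.6% and 8.33%. For 6 of 10 genes (HAP2, DUO1, GEX2, GEX3, HTR10 and DAZ1) all 4 sperm pools lay above all 4 stem pools, beside 34.9% of all genes. After the chloroplast correction this held for 1 of 10 genes (GEX2), beside 13.6%. With the median CHH level of all genes as the rate it held for 3 of 10 (HAP2, DUO1 and GEX2), beside 20.6%. As deposited, a higher CG level in sperm was thus shared with most nuclear genes.

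The shift moved with the conversion measure. Subtracting the chloroplast CHH level of each pool as the rate of failed conversion left 6 of 10 genes higher in wt21 sperm, 1 lower and the others at 0 in both, with a median difference of 1.16 points. Over all nuclear genes it left 48.0% higher, with a median of 0 points. In ago9, the sperm pool with the highest chloroplast level, it left 3 higher and 6 lower, beside 27.1% of all nuclear genes higher. This rate was above the CHH level of most genes in the same sperm pools, so it takes away more than those genes show. Using the median CHH level of all nuclear genes as the rate, an alternative chosen after seeing the data, left 7 higher and 1 lower in wt21 and a median of 1.61 points. Over all nuclear genes 61.7% were then higher, with a median of 0.384 points. For GEX2 the wt21 difference was 5.47 points after the first correction and 5.82 after the second. For GEX1 it was 4.26 and 4.72 points, for DUO1 1.49 and 1.97, for HTR10 1.24 and 1.75, for GEX3 1.16 and 1.66 and for HAP2 1.16 and 1.57. DAZ1 turned to -0.627 and -0.127 points. DAZ2 and DMP8 were at 0 after both, and DMP9 at 0 and 0.0781 points. In ago9 the chloroplast correction also turned the differences of DUO1, GEX3, HTR10, DAZ1 and DMP9, to -0.494, -1.23, -0.274, -2.73 and -1.0 points, whereas the gene correction left all of these above 0, between 1.02 and 3.11 points.

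**Figure D2:**
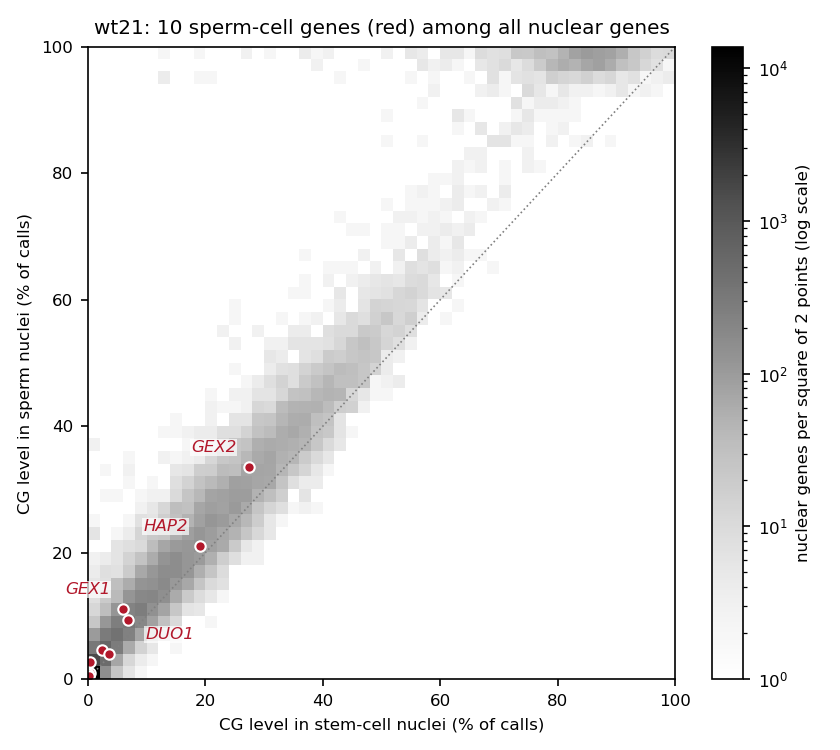
CG level of wt21 in sperm nuclei (vertical axis) against stem-cell nuclei (horizontal axis), both in percent of calls; grey squares count nuclear genes on a log scale, red points are the 10 genes and the dotted line marks equal levels. The 10 genes lie on or just above the line, within the mass of all nuclear genes.

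The other contexts were low throughout, as is usual for gene bodies. In CHG, counting intervals lay above 0 in 13 of 40 sperm minus stem differences (10 genes in 4 genotypes), beside 27.9% over all nuclear genes, and 0 of 40 passed 5 points, beside 4.55%. All sperm pools lay above all stem pools for 5 of 10 genes, beside 41.3%. In CHH the interval lay above 0 in 32 of 40, beside 60.7%, 0 of 40 passed 2 points, beside 7.02%, and the pools separated for 6 of 10 genes, beside 65.1%. In ago59 the CHH interval of 1 of 10 genes lay below 0, beside 1465 of 32603 nuclear genes. It was that of DMP9, with 0.567% in sperm and 2.10% in stem nuclei. After the chloroplast correction the pools separated for 0 of 10 genes in CHG and in CHH, beside 1.75% and 0.332% of all genes. After the gene correction they separated for 1 of 10 (HAP2) in each, beside 3.72% and 3.83%. The wt21 medians were 0.805 points in CHG, beside 0.530 over all genes, and 0.688 points in CHH, beside 0.520. Both were at most 0.0622 points under either correction for conversion.

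**Figure D3:**
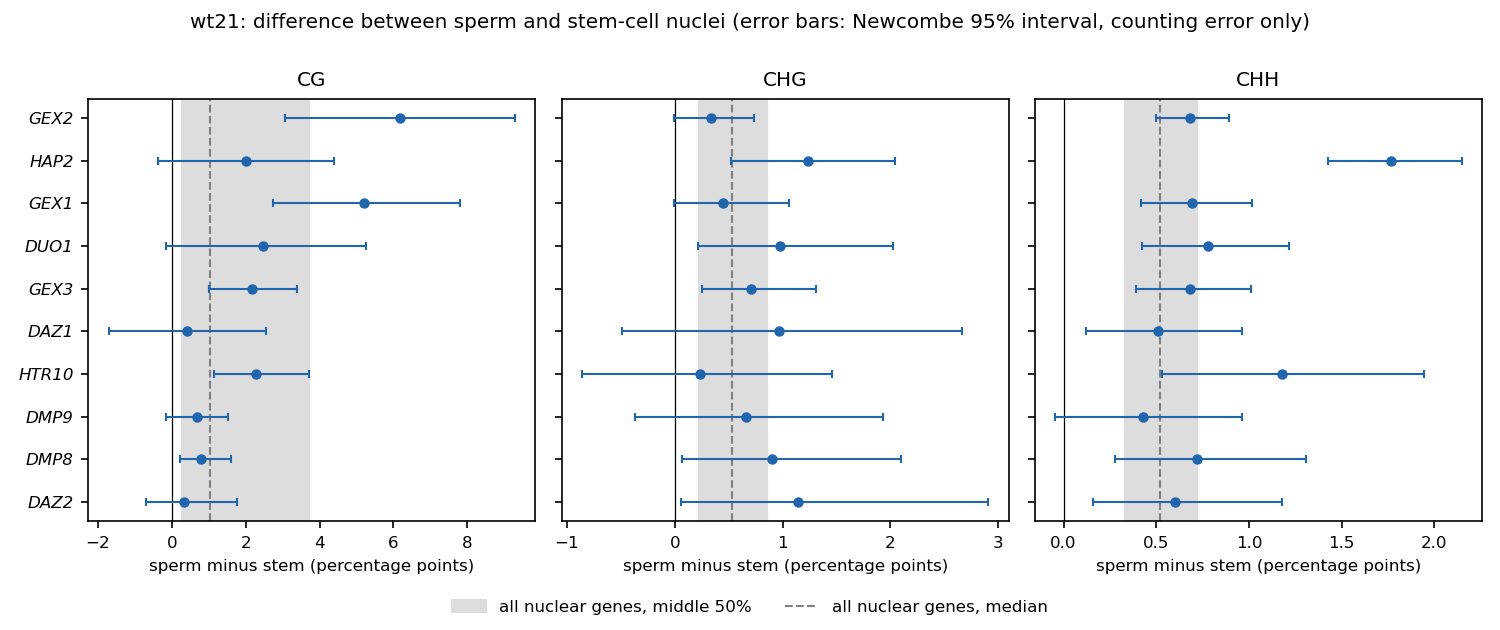
Difference in methylation level between wt21 sperm and stem-cell nuclei (percentage points) for each gene in CG, CHG and CHH, with Newcombe 95% intervals; the dashed line and grey band give the median and the middle 50% over all nuclear genes. GEX2 and GEX1 lie above the band in CG, and HAP2 has the largest difference of the 10 in CHG and in CHH.

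HAP2 had the highest CHG and CHH levels of the 10 genes in each sperm pool. Its CHH level was 1.44% in ago5, 1.66% in ago9, 1.34% in ago59 and 2.08% in wt21 sperm. In stem nuclei it was 0.489% in ago5, 0.489% in ago9, 0.306% in ago59 and 0.308% in wt21. The wt21 difference was 1.77 points (95% interval 1.43 to 2.15), and it was 0.716 and 1.22 points after the chloroplast and the gene correction. In CHG it had 1.94% in ago5, 1.70% in ago9, 1.38% in ago59 and 1.88% in wt21 sperm. In stem nuclei the CHG levels were 0.608% in ago5, 0.789% in ago9, 0.112% in ago59 and 0.646% in wt21.

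Part of these calls lie in AT4TE30630, the element of 103 bp in intron 3 whose sequence is given above. In wt21 sperm 25 of 120 of its CHH calls were methylated (20.8%), against 6 of 149 in wt21 stem nuclei (4.03%). In ago9 the counts were 18 of 101 in sperm and 9 of 139 in stem nuclei, and in ago59 22 of 162 and 9 of 172. In ago5 they were 5 of 140 in sperm and 6 of 171 in stem nuclei, so that the ago5 sperm pool was at 3.57%, near the stem pools. Its single CG site gave 9 of 10 methylated calls in wt21 sperm, against 10 of 21 in wt21 stem nuclei. In ago5 this site gave 14 of 14 in sperm, against 16 of 23 in stem nuclei. The CHG calls of the element were methylated in 6 of 24 in ago5 sperm and 2 of 13 in wt21 sperm. Without the element, HAP2 still had 1.74% CHH in wt21 sperm, against 0.244% in wt21 stem nuclei, and 20.8% CG, against 18.8%.

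HAP2 also starts 463 bp from AT4G11710, a transposable element gene upstream of it that overlaps the element AT4TE30625 and shares calls with it. The CG level of AT4TE30625 was 97.0% in wt21 sperm and 83.1% in wt21 stem nuclei. AT4G11710 had 61.0% in wt21 sperm and 53.3% in wt21 stem nuclei. On the other side, AT4G11730, 157 bp downstream, had 5.77% in wt21 sperm and 6.35% in wt21 stem nuclei. The element AT4TE30640, 409 bp downstream of HAP2, lies inside AT4G11730. Of its CHH calls 18 of 98 were methylated in wt21 sperm, against 12 of 91 in wt21 stem nuclei. In the mutants its sperm pools were the lower ones, with 4 of 57 in ago5, 7 of 84 in ago9 and 2 of 92 in ago59. Their stem pools had 17 of 89 in ago5, 32 of 77 in ago9 and 41 of 105 in ago59.

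**Figure D4:**
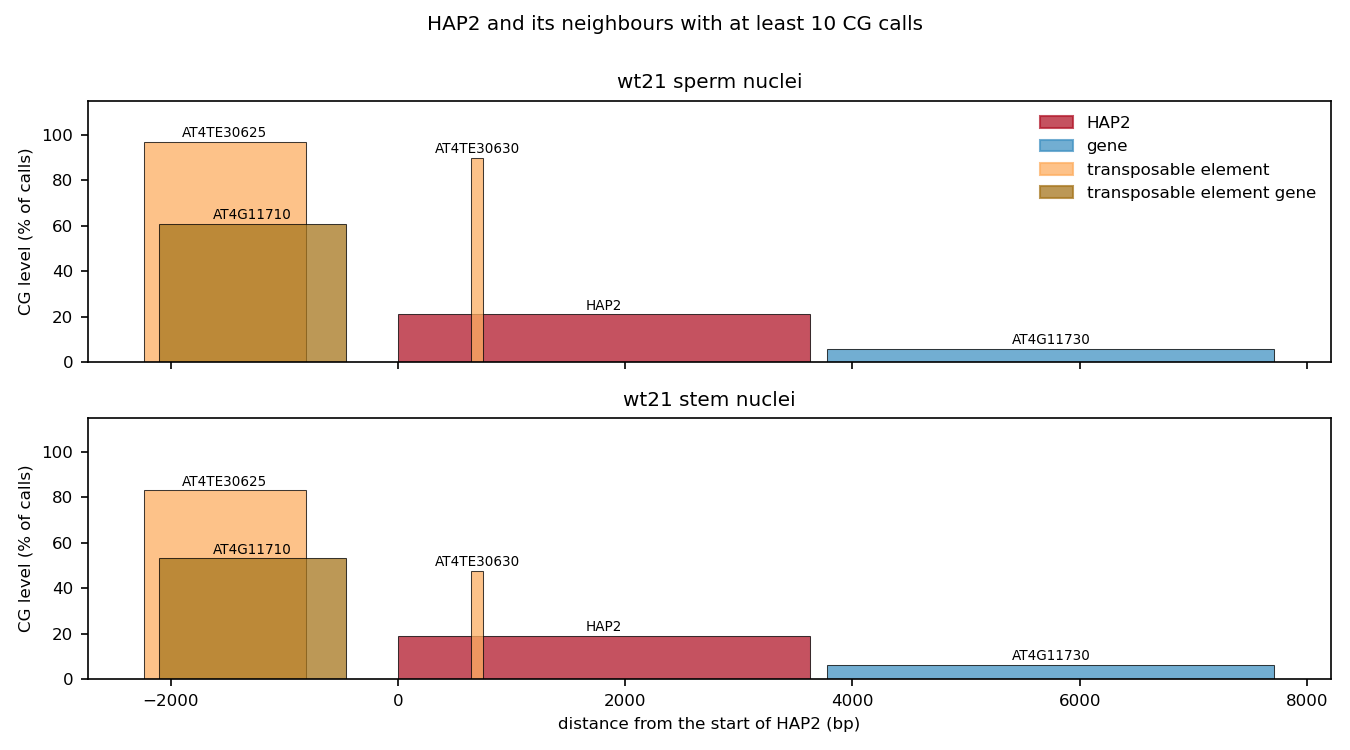
CG level (percent of calls) in wt21 sperm (top) and stem-cell nuclei (bottom) of HAP2 and of neighbouring features with at least 10 CG calls, drawn to scale by distance from the start of HAP2; bar height is the level of the whole feature. The element inside HAP2 and the elements upstream stand far above the gene itself, and overlapping bars share calls.

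The mutants were compared with wt21 in each cell type. All comparisons share the wt21 pool of that cell type, so a wt21 value that is high or low by itself moves all mutants together. In sperm, CG intervals excluded 0 in 10 of 30 mutant differences, beside 18.2% over all nuclear genes, and 0 of 30 passed 10 points, beside 1.90%. GEX1, the nuclear envelope protein, was lower in ago5 and ago59, with differences of -4.44 points (95% interval -7.19 to -1.69) and -3.64 points (95% interval -6.50 to -0.766), and differed by -1.36 points (95% interval -4.28 to 1.52) in ago9. GEX3 differed by -1.48 points (95% interval -2.79 to -0.175) in ago5 and -1.64 points (95% interval -2.95 to -0.310) in ago59. HTR10 differed by -1.51 points (95% interval -3.02 to -0.0898) in ago5 and -1.88 points (95% interval -3.35 to -0.510) in ago59, while ago9 and wt21 both had 2.64%. DAZ1, the zinc finger factor, was higher, by 2.80 points (95% interval 0.341 to 5.30) in ago5 and 2.73 points (95% interval 0.211 to 5.37) in ago59. The remaining intervals off 0 were those of DMP9 in ago9 and ago59. HAP2, GEX2, DUO1, DAZ2 and DMP8 had intervals that included 0 in all 3 mutants. The ago9 values depended on the conversion rate: after the chloroplast correction GEX1 differed by -4.44 points in ago9, beside -4.47 in ago5 and -3.41 in ago59, GEX3 by -3.32, HTR10 by -1.29, DUO1 by -3.58, GEX2 by -3.84, HAP2 by -1.58 and DAZ1 by -2.09 points. With the gene correction GEX1 differed by -1.33 points in ago9. In ago5 and ago59 the differences of GEX1, GEX3, HTR10 and DAZ1 kept their signs under both corrections.

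DMP9, the fusion factor, was nearly unmethylated in wt21 and less so in ago9 and ago59. In sperm 6 of 1077 CG calls were methylated in ago5, 40 of 929 in ago9, 41 of 888 in ago59 and 9 of 958 in wt21. In stem nuclei 2 of 784 were methylated in ago5, 7 of 537 in ago9, 11 of 744 in ago59 and 2 of 740 in wt21. The ago9 and ago59 pools were thus the higher ones in both cell types. In sperm ago9 exceeded wt21 by 3.37 points (95% interval 1.96 to 4.93) and ago59 by 3.68 points (95% interval 2.22 to 5.33). In stem nuclei the differences were 1.03 points (95% interval 0.0567 to 2.41) and 1.21 points (95% interval 0.245 to 2.37). The ago59 stem pool was not higher in CG alone. Its CHH level in DMP9 was 2.10%, above its CG level of 1.48%, against 0.196% CHH in wt21 stem nuclei.

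The ago9 sperm pool was also the one with the chloroplast CHH level of 4.56%. Subtracting the chloroplast level set the ago9 sperm difference of DMP9 to 0 and left 3.59 points for ago59. The CHH level of DMP9 itself was 0.515% in ago9 sperm and 0.623% in wt21 sperm, and with the gene correction the CG differences were 3.44 points in ago9 and 3.82 in ago59. DMP8, its close relative, had CG levels of 0.346% in ago9 and 1.25% in ago59 sperm, against 0.783% in wt21 sperm, with differences of -0.437 points (95% interval -1.29 to 0.342) and 0.464 points (95% interval -0.526 to 1.52). Upstream of DMP9, the heavily methylated genes AT5G39640 and AT5G39645 had 61 of 62 and 38 of 40 CG calls methylated in ago9 sperm, against 63 of 64 and 28 of 31 in wt21 sperm. The element AT5TE57310, 409 bp upstream of DMP9, had 0 methylated CG calls in every pool, of 7 to 43 calls.

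**Figure D5:**
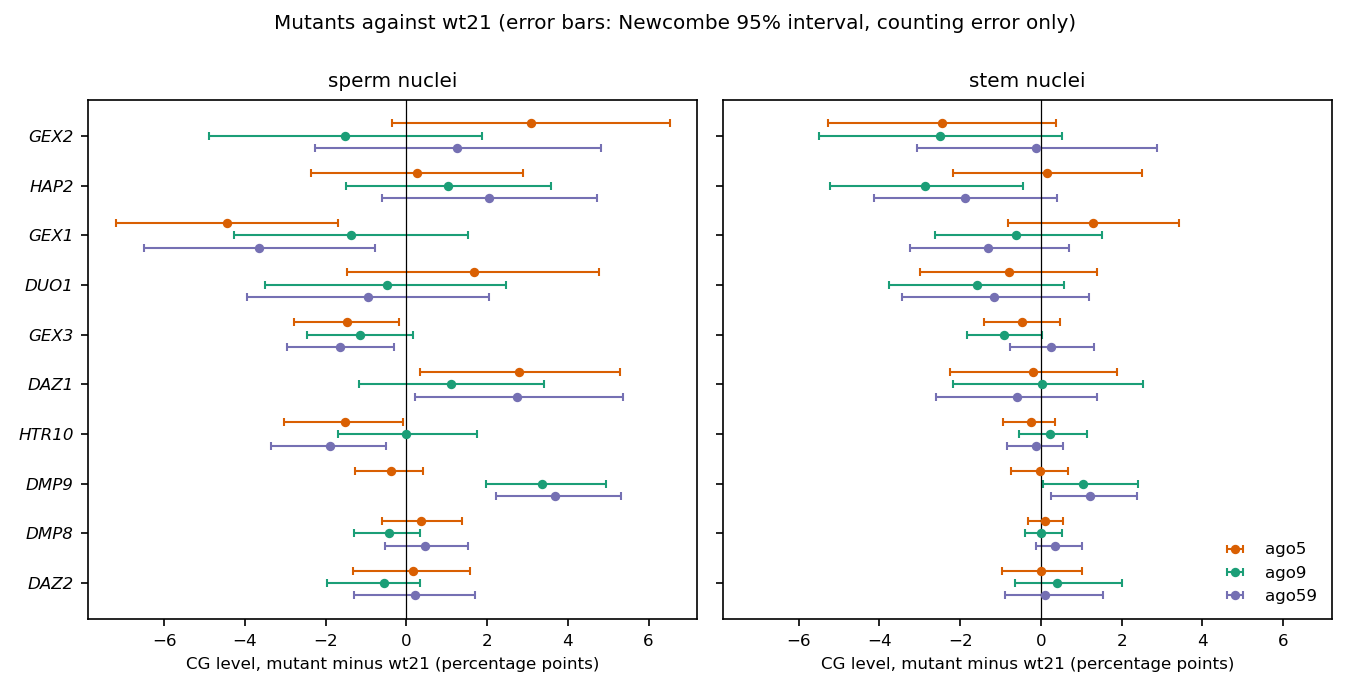
CG difference between each mutant and wt21 (percentage points) for the 10 genes in sperm (left) and stem-cell nuclei (right), with Newcombe 95% intervals. As deposited, GEX1, GEX3 and HTR10 lie below 0 in sperm in ago5 and ago59, and DMP9 lies above 0 in ago9 and ago59 in both cell types.

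In stem nuclei CG intervals excluded 0 in 3 of 30 differences, beside 19.4% over all genes, and 0 passed 10 points, beside 2.15%. Besides DMP9, this was HAP2 in ago9, with -2.86 points (95% interval -5.23 to -0.448). GEX1 differed there by 1.28 points (95% interval -0.809 to 3.43) in ago5 and -1.31 points (95% interval -3.24 to 0.697) in ago59. HTR10 differed in stem nuclei by -0.240 points (95% interval -0.936 to 0.354) in ago5 and -0.117 points (95% interval -0.828 to 0.558) in ago59.

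For each gene the mutant difference in sperm was set against that in stem nuclei, as sperm minus stem, with a 95% interval for counting error. In CG this interval excluded 0 in 9 of 30 cases, beside 12.0% over all nuclear genes, with 6 above 0, beside 6.03%, and 3 below 0, beside 5.95%. Above 0 were GEX2 in ago5, with 5.55 points (95% interval 1.09 to 9.99), and HAP2 in ago9 and ago59, with 3.90 points (95% interval 0.401 to 7.37) and 3.92 points (95% interval 0.425 to 7.42). DAZ1 in ago59 had 3.33 points (95% interval 0.120 to 6.64), and DMP9 had 2.33 points (95% interval 0.367 to 4.18) in ago9 and 2.47 points (95% interval 0.602 to 4.38) in ago59. Below 0 were GEX1 in ago5, with -5.71 points (95% interval -9.21 to -2.27), GEX3 in ago59, with -1.89 points (95% interval -3.58 to -0.213), and HTR10 in ago59, with -1.76 points (95% interval -3.38 to -0.220). After the chloroplast correction the ago9 values were 1.29 points for HAP2 and -1.0 for DMP9, and the other 7 kept their signs. For DMP9 the ago9 and wt21 sperm levels were both set to 0, so -1.0 is only the stem difference with its sign changed. In CHG the interval excluded 0 in 1 of 30 cases (DAZ1 in ago59), beside 4.44%. In CHH it excluded 0 in 8 of 30, beside 15.0%, and all 8 were below 0, beside 9.74%. They were HAP2 in all 3 mutants, HTR10 in ago9 and ago59, DUO1 in ago9, GEX2 in ago59 and DMP9 in ago59. DMP9 lay farthest from 0 of the 8, at -1.96 points (95% interval -3.00 to -1.01). It differed from wt21 by -0.0561 points in ago59 sperm and by 1.90 points in ago59 stem nuclei. Under the chloroplast correction all 8 were below 0, but corrected levels are not taken below 0. For GEX2 and DMP9 in ago59 and DUO1 in ago9, mutant and wt21 sperm levels were both set to 0. Their corrected values are thus only the stem difference with its sign changed. GEX2 was then at -0.0191 from -0.382 points, DUO1 at -0.268 from -0.897 and HTR10 in ago59 at -0.135 from -1.08. DMP9 was at -1.80 points, and only HAP2 in ago9 moved away from 0, to -0.899 from -0.596 points.

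In CHG, 1 of 30 sperm differences excluded 0, beside 4.97%, and 0 passed 5 points, beside 3.43%. It was DAZ1 in ago59, with 0 of 388 calls methylated in ago59 and 6 of 417 in wt21. In stem nuclei 2 of 30 excluded 0 (GEX3 in ago5 and HAP2 in ago59), beside 5.53%, and 0 passed 5 points, beside 3.01%.

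In CHH, 7 of 30 sperm differences excluded 0, beside 14.3% over all genes. All 7 were lower in the mutant, beside 9.59% of all genes with an interval below 0, and 0 passed 2 points, beside 3.77%. HAP2 differed by -0.637 points (95% interval -1.09 to -0.192) in ago5 and -0.735 points (95% interval -1.19 to -0.286) in ago59, and HTR10 by -0.796 points (95% interval -1.61 to -0.00927) in ago5 and -1.14 points (95% interval -1.91 to -0.437) in ago59. The others were GEX1 and GEX2 in ago59 and DUO1 in ago9. Without the element AT4TE30630 the HAP2 difference in ago5 was -0.345 points, and its interval (95% interval -0.773 to 0.0808) included 0, whereas in ago59 it was -0.735 points (95% interval -1.14 to -0.328). The wt21 sperm pool had the highest median CHH of the 10 genes, at 0.924%, and also of all nuclear genes, at 0.862%. With the gene correction the ago5 value of HAP2 was -0.585 points and its ago59 value -0.628 points. In stem nuclei 3 of 30 excluded 0, beside 15.5%, and 0 passed 2 points, beside 3.26%. One was DMP9 in ago59, where 32 of 1525 CHH calls were methylated, against 3 of 1534 in wt21, a difference of 1.90 points (95% interval 1.19 to 2.76). The others were DUO1 in ago9 and GEX2 in ago59.

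Other genes of the reproductive and meristem programs were counted in the same way in wt21 CG. Over all nuclear genes 81.8% were higher in sperm, 40.0% had an interval above 0, and the median difference was 1.02 points. Of 10 other male germline genes, 9 were higher in sperm than in stem nuclei and 6 had an interval above 0, with a median difference of 0.846 points. DUO3, another regulator of the male germline, was the most methylated of them, at 65.3% in sperm, against 58.0% in stem nuclei. Of 11 genes of the vegetative pollen cell, 10 were higher in sperm, 7 with an interval above 0, and the median was 1.53 points. In that list the pollen tube receptor kinase BUPS1 had 58.2% in sperm, against 41.3% in stem nuclei, and the calcium-dependent kinase CPK34 had 30.8%, against 20.7%. These were the 2 of 11 that passed 10 points, beside 7.90% of all nuclear genes, and 0 passed in each of the other lists. Of 5 egg-cell EC1 genes 3 were higher and 0 had an interval above 0, with a median of 0.918 points. Of 16 shoot meristem genes, 15 were higher, 12 with an interval above 0, and the median was 0.854 points. In each of these lists more genes were higher than lower in sperm, and whether the sperm-cell genes differ from them was not tested.

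The genes whose CG levels followed those of GEX2 most closely over the 8 pools were AT1G22730, AT4G26450 and AT1G14650, with mean absolute differences of 0.869, 1.02 and 1.26 points among 29672 genes with at least 50 CG calls in each pool. AT1G22730 had 33.1% in wt21 sperm and 26.4% in wt21 stem nuclei, beside 33.6% and 27.4% in GEX2.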

How the data were processed

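Bisulfite sequencing measured DNA methylation in 24 labelled samples of 8 groups. Library construction used the Pico Methyl-Seq chemistry, as the labels' protocols state. Trim Galore, Bismark and bedtools 2.30.0 with the TAIR10 build are named in the submitters' processing notes, without their roles. The deposited table gives whole-number counts of methylated and of total calls per feature and context, and their fraction, per the file headers. How replicates and repeat runs were combined is not given in the sources used here. Of its 68992 nuclear features, 37803 have a locus tag in TAIR10.1 of RefSeq and 37799 of these have the same start and end there. The labels name RNA as the molecule, which the protocol contradicts.

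A level is methylated over total calls, with Wilson 95% intervals, and a difference has a Newcombe 95% interval, both for counting error only. A limit for 0 methylated calls is 3 calls of the total. A difference passed at 10 points in CG, 5 in CHG or 2 in CHH with at least 10 calls in both pools. The corrections compute (level - rate) / (1 - rate), not below 0. All 10 members are named. Genes of other lists are named where they passed, and DUO3 as the highest of its list. Of the features within 2000 bp, some beside HAP2, GEX2 and DMP9 are named. Others, among them transposable elements near GEX2 and GEX3, are not. The members and lists were chosen with earlier results of these data known. The alternatives were other call minimums, thresholds, corrections, centring and averages. Interval code was checked on simulated data. Python 3.11.15, numpy 2.4.6, scipy 1.17.1, pandas 2.3.3 and Biopython 1.88 were used.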

Additional observations from a re-analysis of the deposited data

Results flagged for a closer look

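A difference from wt21 was marked for a closer look where sperm and stem nuclei moved in opposite directions and both counting intervals excluded 0; the difference between the cell types was not tested against replicates, and groups of 1 pool allow no search for outlying samples. DUO1 in ago9 met this in CHH, with -0.567 points (95% interval -1.03 to -0.145) in sperm and 0.330 points (95% interval 0.0636 to 0.622) in stem nuclei. GEX2 in ago59 met it in CHH as well, with -0.256 points (95% interval -0.502 to -0.0109) in sperm and 0.126 points (95% interval 0.000406 to 0.262) in stem nuclei. All these levels were within 0.196 to 1.02%. The sperm levels were below the chloroplast CHH levels of their own pools, 1.37% in wt21. In stem nuclei DUO1 had 0.574% in ago9 and GEX2 0.322% in ago59, above their pools' chloroplast levels of 0.307% and 0.303%. Their wt21 stem levels, 0.244% and 0.196%, were below the 0.303% of that pool. The part of conversion in all these levels was not tested.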

How the results depend on the processing

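Each of the 10 genes had at least 289 calls in each context and pool. Minimums of 5 and of 30 calls therefore could not change their medians and counts. The sperm minus stem medians depended on conversion, in points. As deposited, CG was 1.11 in ago5, 2.53 in ago9, 2.78 in ago59 and 2.09 in wt21, CHG was 0.434 in ago5, 0.599 in ago9, 0.564 in ago59 and 0.805 in wt21 and CHH was 0.543 in ago5, 0.520 in ago9, 0.345 in ago59 and 0.688 in wt21. With the chloroplast correction, CG was 0.0801 in ago5, -0.292 in ago9, 2.08 in ago59 and 1.16 in wt21, CHG was 0 in ago5, -0.0248 in ago9, 0 in ago59 and 0 in wt21 and CHH was 0 in ago5, 0 in ago9, -0.00570 in ago59 and 0 in wt21. With the gene correction, chosen after seeing the data, CG was 0.516 in ago5, 2.04 in ago9, 2.37 in ago59 and 1.61 in wt21, CHG was 0 in ago5, 0.0311 in ago9, 0.0345 in ago59 and 0.0221 in wt21 and CHH was 0.0165 in ago5, 0 in ago9, -0.00189 in ago59 and 0.0622 in wt21. Centred on the median of all genes, CG was 0.154 in ago5, 1.51 in ago9, 1.79 in ago59 and 1.07 in wt21, CHG was -0.0116 in ago5, 0.108 in ago9, 0.140 in ago59 and 0.275 in wt21 and CHH was 0.0821 in ago5, 0.0399 in ago9, -0.0738 in ago59 and 0.168 in wt21. The mean over the genes gave 2.56 for ago5 CG and 0.805 for wt21 CHH, and summed calls gave 2.52 and 0.878.

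Of the mutant minus wt21 medians in sperm, the chloroplast correction moved ago9 CG to -1.84 from -0.463 and CHH to 0 in ago5 and 0 in ago59, and the gene correction moved ago59 CHH to -0.0622. In stem nuclei ago9 CHH was 0 with the chloroplast and 0 with the gene correction, summed calls gave -1.35 for ago9 CG and 0.0976 for ago59 CHH, and the mean gave 0.212 for the last. The cause of these moves was not tested.

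With halved thresholds, 7 of 40 sperm minus stem differences passed in CG and 6 in CHH, and 1 of 30 mutant differences in CHH in each cell type. Among the 6 in CHH was DMP9 in ago59, which was lower in sperm, at -1.53 points. With doubled thresholds 0 passed in CG, against 1 as set. Over all nuclear genes, sperm minus stem CG differences past the threshold numbered 10299, or 26579 halved and 2286 doubled, with 32169 to 32231 genes compared in each of the 4 genotypes. In CHG they numbered 5868, 9410 and 3311 of 128844 differences, and in CHH 9151, 20576 and 4146 of 130427. For mutants in sperm these were 1835 / 8249 / 406, 3312 / 6492 / 1273, 3686 / 9646 / 1330, and in stem nuclei 2078 / 8299 / 435, 2918 / 4969 / 1250, 3194 / 6983 / 1262, each as set, halved and doubled, in the order CG, CHG and CHH. The mutant totals in the same order were 96592, 96619 and 97813 differences in sperm and 96852, 96928 and 97967 in stem nuclei.

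No paired analysis was possible because the table holds 1 column per group, and leaving out replicates was not run for the same reason. Differences of several points in ago9 sperm also depended on the rate used for conversion. There the chloroplast correction moved the CG difference of DMP9 to 0 from 3.37 points and that of DAZ1 to -2.09 from 1.12 points. The median CHH level of all nuclear genes in ago9 sperm was 0.817%, against a chloroplast level of 4.56%, and which rate applies was not tested. The number of calls sets the width of each interval.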
